A study of Homo sapiens with 6 samples.

Results

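The 10 genes described here encode regulators and targets of YAP and TEAD, namely YAP1, WWTR1, TEAD1, TEAD4, LATS2, AMOTL2, ANKRD1, AXL, AJUBA and CRIM1. They were chosen by symbol from the 30230 genes of the count table, and each symbol matched 1 row. RNA-seq was carried out on polyadenylated RNA of A549, a human lung adenocarcinoma cell line, in 3 control libraries (NC) and 3 libraries made after silencing of FSCN1 (siFSCN1), whose protein, fascin, bundles actin filaments. Every library came from the same line, and the study's methods describe transfection and name no stable clone. The study names 1 siRNA sequence for the siFSCN1 libraries. For the NC cells the treatment label names a control plasmid, whereas the study's methods name a scrambled siRNA. The study's results also speak of a plasmid for the FSCN1 siRNA, so the form of the reagent is unclear for both groups. The comparison asks whether genes of this pathway, whose activity is known to depend on the actin cytoskeleton, changed in RNA level when fascin was silenced.

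YAP1 and TAZ, the product of WWTR1, are co-activators that carry no DNA-binding domain and act in the nucleus through TEAD transcription factors. The Hippo kinases LATS1 and LATS2 phosphorylate both co-activators, which then stay in the cytoplasm or are degraded, and stiff, contractile actin networks are known to favour their entry into the nucleus. RNA-seq reads the RNA of the genes and of their targets, and none of these libraries measured where the YAP1 protein was or how far it was phosphorylated.

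FSCN1 itself checked the labels. Its level in CPM (counts scaled to library size, after TMM factors between libraries) was 211, 220 and 212 in NC and 18.3, 11.8 and 13.2 in siFSCN1. The siFSCN1 mean was 6.74% of the NC mean, a log2 fold change of -3.89 (SE 0.094, edgeR adjusted p = 8.1e-16). Library totals ran from 27967301 to 36560919 counts, and the 10 genes held between 262 and 9461 counts in each library. The groups separated on the first component of log2 CPM, which held 78.7% of the variance. The 12 epithelial and metabolic markers used for A549 were detected at mean FPKM from 3.15 to 3006 (FPKM, fragments scaled to gene length and to library depth), of which 3 were higher and 7 lower in siFSCN1. The 8 markers of immune, endothelial, fibroblast and muscle cells stayed at or below 0.65 FPKM in every library, and their summed CPM before TMM scaling ran from 4.15 to 4.87 in NC and from 2.96 to 5.14 in siFSCN1. In a bulk library, RNA per cell and the share of cells that carry an RNA cannot be told apart.

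The sequence that TEAD factors are best known to bind holds the core GGAATG, and this core was looked for on both strands (GGAATG or CATTCC) in RefSeq promoter windows of GRCh38.p14, which run from 250 bases before to 50 bases after a transcription start. Windows were found for 7 of the 10 genes, 11 windows in all, and not for TEAD1, TEAD4 or CRIM1. At least 1 window of 6 genes (YAP1, LATS2, AMOTL2, ANKRD1, AXL and AJUBA) held the core, with 7 matches in 6 windows, whereas neither window of WWTR1 did. Over all 35116 promoter windows of this length, 14.0% held it. The 4 windows printed here belong to 2 genes that were lower in siFSCN1 (ANKRD1 and AMOTL2) and 2 that were higher (YAP1 and LATS2), so the core can be seen in promoters of genes that moved either way. They are written 5′ to 3′ on the strand of the gene, with the core in capitals.
ANKRD1, chr10:90921038-90921337, minus strand: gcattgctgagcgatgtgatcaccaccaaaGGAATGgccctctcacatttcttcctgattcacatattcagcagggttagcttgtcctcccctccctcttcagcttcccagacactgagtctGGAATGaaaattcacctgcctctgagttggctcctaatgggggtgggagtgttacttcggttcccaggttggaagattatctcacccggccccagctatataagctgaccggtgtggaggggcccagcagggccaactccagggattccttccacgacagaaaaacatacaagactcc
AMOTL2, chr3:134374398-134374697, minus strand: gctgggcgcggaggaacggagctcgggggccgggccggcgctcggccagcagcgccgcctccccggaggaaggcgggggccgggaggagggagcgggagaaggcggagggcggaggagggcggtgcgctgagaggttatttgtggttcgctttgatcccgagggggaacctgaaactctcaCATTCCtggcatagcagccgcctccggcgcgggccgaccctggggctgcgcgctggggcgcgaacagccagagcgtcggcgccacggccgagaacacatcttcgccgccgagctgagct
YAP1, chr11:102110197-102110496, plus strand: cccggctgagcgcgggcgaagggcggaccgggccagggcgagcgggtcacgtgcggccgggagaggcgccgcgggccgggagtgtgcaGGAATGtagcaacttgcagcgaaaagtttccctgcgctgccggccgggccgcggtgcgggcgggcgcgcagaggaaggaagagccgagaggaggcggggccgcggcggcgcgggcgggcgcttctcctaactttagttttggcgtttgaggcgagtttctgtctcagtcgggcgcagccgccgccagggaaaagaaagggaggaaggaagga
LATS2, chr13:21061537-21061836, minus strand: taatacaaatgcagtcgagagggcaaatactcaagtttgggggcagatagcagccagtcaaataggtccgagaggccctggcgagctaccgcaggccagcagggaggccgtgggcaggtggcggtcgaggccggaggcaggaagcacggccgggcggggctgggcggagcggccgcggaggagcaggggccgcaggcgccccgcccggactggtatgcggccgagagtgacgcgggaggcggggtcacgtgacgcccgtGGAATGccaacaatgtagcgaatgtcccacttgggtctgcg

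Counted from the transcription start at 1, the first base of the core lay at -220 and -128 in ANKRD1, at -69 in AMOTL2, at -162 in YAP1 and at 10 in LATS2, inside the first exon. In AXL and AJUBA it lay at -212 and -59. AMOTL2, AXL and AJUBA each held the core in 1 of 2 windows. The AP-1 motif TGANTCA, read on both strands, was found in the ANKRD1 window only, at -195, and in 7.71% of all promoter windows. These matches describe letters in a window and are not binding sites measured in these cells.

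Of the 10 genes, 3 were higher in siFSCN1 (YAP1, WWTR1 and LATS2), 4 were lower (TEAD4, AMOTL2, ANKRD1 and AJUBA) and 3 passed the test in neither direction (TEAD1, AXL and CRIM1). Among all 17076 genes tested, 35.1% were higher and 33.2% lower at an adjusted p under 0.05 (edgeR's quasi-likelihood test with Benjamini-Hochberg adjustment), so both counts were near the background. None of the 10 reached a 2-fold change, against 16.5% of all genes tested. The CPM ranges of NC and siFSCN1 did not overlap for 7 of the 10 genes, against 71.3% of all genes. The median log2 fold change was -0.02 over the 10 genes and 0.03 over all genes tested.

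**Figure D1:**
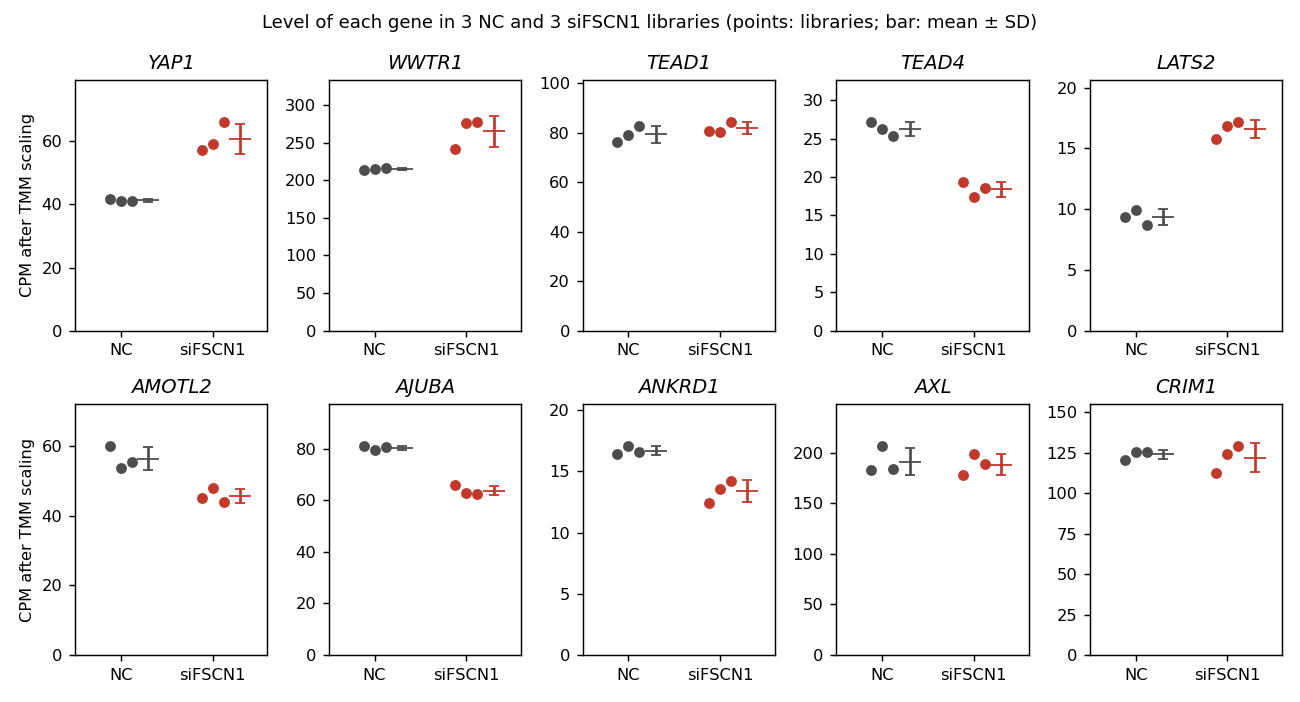
CPM after TMM scaling (vertical axes, each from 0) of the 10 genes in the 3 NC (grey) and 3 siFSCN1 (red) libraries, with the mean and SD of each group beside the points. All siFSCN1 points lie above all NC points for YAP1, WWTR1 and LATS2 and below them for TEAD4, AMOTL2, AJUBA and ANKRD1, whereas the points of TEAD1, AXL and CRIM1 overlap.

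Both co-activators rose. YAP1 (chr11:102110447-102233424 on GRCh38, plus strand) was at 41.8, 41.2 and 41.0 CPM in NC and at 57.3, 59.1 and 66.3 CPM in siFSCN1. Each siFSCN1 library was above each NC library, and the third siFSCN1 library was the highest. The mean rose from 41.3 ± 0.424 to 60.9 ± 4.77 CPM (SD, n = 3 each), a log2 fold change of 0.56 (SE 0.057, 95% interval 0.44 to 0.68, edgeR adjusted p = 7.9e-08). This is 1.47-fold.

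WWTR1 (chr3:149517235-149736714, minus strand), which encodes TAZ, was second of the 10 genes in FPKM, which is scaled to length. It was at 213, 215 and 217 CPM in NC and at 242, 277 and 278 CPM in siFSCN1. The NC libraries lay within a narrow range and the first siFSCN1 library was nearest to them. Its log2 fold change was 0.30 (SE 0.047, 95% interval 0.21 to 0.40, edgeR adjusted p = 1.5e-05), which is 1.23-fold.

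Because FPKM is scaled to gene length, the levels of YAP1 and WWTR1 can be set beside each other. WWTR1 was the more abundant in each library, with a mean FPKM of 20.5 against 5.20 in NC and of 28.3 against 8.60 in siFSCN1. YAP1 made up 20.3% ± 0.305 of their summed FPKM in NC and 23.3% ± 1.08 in siFSCN1 (SD, n = 3 each), with no overlap between groups. The exact two-sided permutation test gave p = 0.1, the smallest that 3 against 3 libraries allow. The summed FPKM of the pair was 25.7 ± 0.360 in NC and 36.9 ± 2.34 in siFSCN1. Deposited FPKM carries no TMM factor. TMM scaling would reduce the siFSCN1 sum of any family relative to its NC sum, without necessarily bringing it below NC. With TMM, YAP1 and WWTR1 were each still higher in siFSCN1, as given above.

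The TEAD genes, which encode the DNA-binding partners, moved in different directions. TEAD4 (chr12:2959330-3040676, plus strand) was at 27.2, 26.2 and 25.4 CPM in NC and at 19.3, 17.4 and 18.5 CPM in siFSCN1. All 3 siFSCN1 libraries were below all 3 NC libraries, and the spread within each group was small beside the gap. The log2 fold change was -0.51 (SE 0.060, 95% interval -0.64 to -0.39, edgeR adjusted p = 5.0e-07), so that the siFSCN1 mean was 70.0% of the NC mean.

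TEAD1 (chr11:12674421-12944737, plus strand) was at 76.2, 79.2 and 83.0 CPM in NC and at 80.9, 80.3 and 84.6 CPM in siFSCN1, and the groups overlapped. Its log2 fold change was 0.04 with a 95% interval from -0.055 to 0.14 (edgeR adjusted p = 0.423). This value depends on the scaling between libraries. On deposited FPKM, which carries no TMM factor, TEAD1 ranged from 5.61 to 6.22 in NC and from 6.60 to 7.03 in siFSCN1, without overlap, and with library totals in place of TMM its log2 fold change was 0.23 (edgeR adjusted p = 3.3e-04).

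The other 2 TEAD genes also moved apart. TEAD2 fell by 0.73 on the log2 scale (SE 0.051, edgeR adjusted p = 5.7e-10), from 35.5 to 21.4 mean CPM. TEAD3, the least abundant, rose by 0.40 (SE 0.13, edgeR adjusted p = 0.0114), from 6.92 to 9.16 mean CPM.

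The make-up of the TEAD family in FPKM therefore differed between groups. TEAD2 and TEAD4 held 35.9% ± 0.0294 and 34.9% ± 1.41 of the summed TEAD FPKM in NC and 27.7% ± 1.31 and 31.2% ± 1.34 in siFSCN1 (SD, n = 3 each). The shares of TEAD1 and TEAD3 went from 22.4% ± 1.00 to 29.5% ± 0.784 and from 6.83% ± 1.14 to 11.6% ± 0.807. No share overlapped between groups, and each exact two-sided permutation p was 0.1, the smallest possible, so no share in this design can pass a 0.05 threshold. These were among 17 shares tested over the 6 families. A share within a library does not move with the scaling between libraries.

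**Figure D2:**
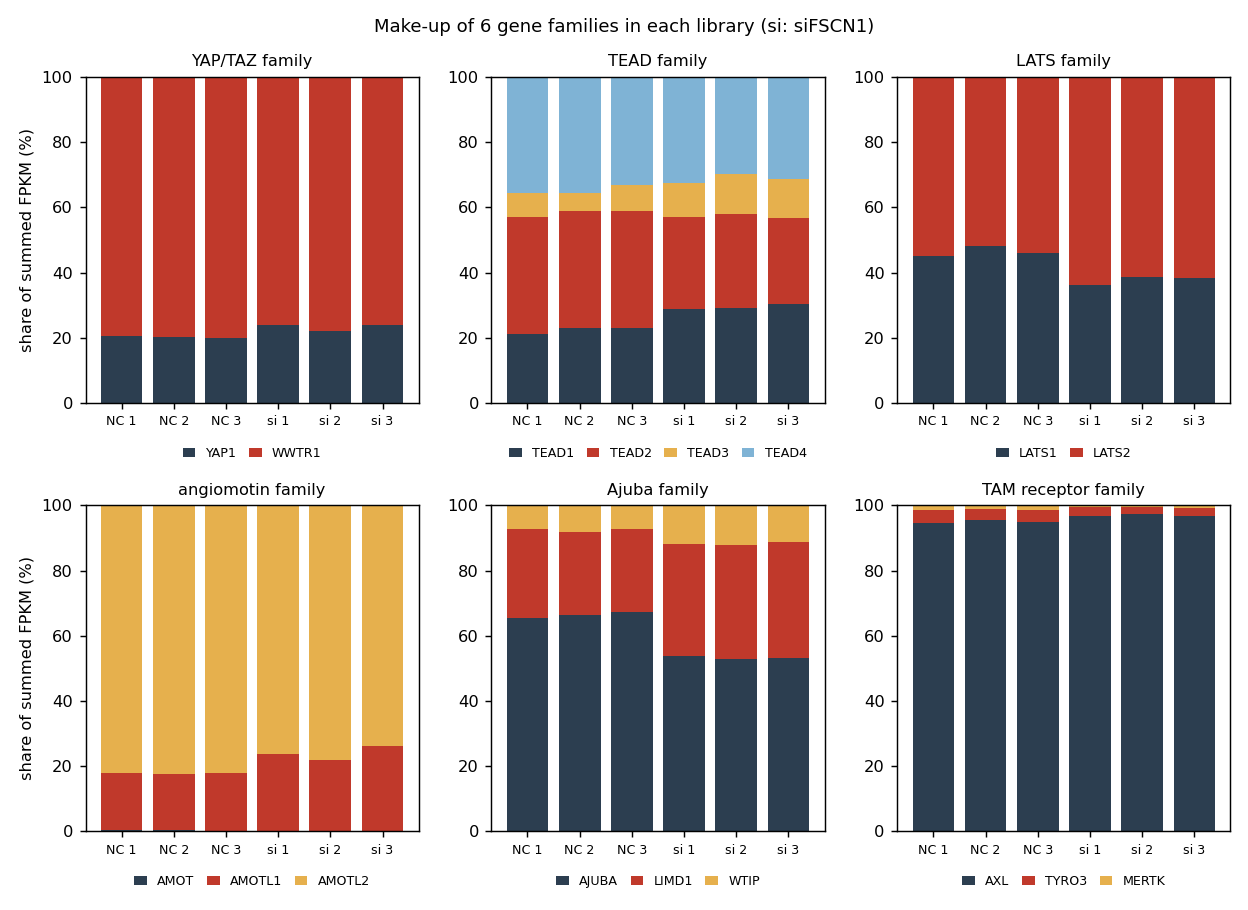
Share of each gene (vertical axis, percent of the family's summed FPKM) in 6 gene families, in each of the 3 NC and 3 siFSCN1 (si) libraries. The share of AJUBA is 66.4% on average in NC and 53.2% in siFSCN1, that of TEAD2 35.9% and 27.7%, and that of AXL 95.1% and 97.0%.

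LATS2 (chr13:20973036-21061586, minus strand), a kinase that phosphorylates YAP1 and TAZ and is itself a known YAP target, had the largest change of the 10 genes. It was at 9.38, 9.95 and 8.68 CPM in NC and at 15.8, 16.8 and 17.2 CPM in siFSCN1. The lowest siFSCN1 library was well above the highest NC library. The log2 fold change was 0.83 (SE 0.095, 95% interval 0.63 to 1.03, edgeR adjusted p = 3.6e-07), which is 1.78-fold. LATS2 was also the lowest of the 10 genes in FPKM, with a mean FPKM of 1.32 in NC and 2.64 in siFSCN1.

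LATS1, its paralog, rose less, with a log2 fold change of 0.31 (SE 0.10, edgeR adjusted p = 0.0139) and CPM ranges that overlapped. LATS2 accounted for 53.5% ± 1.51 of the summed LATS FPKM in NC and 62.3% ± 1.34 in siFSCN1 (SD, n = 3 each, exact permutation p = 0.1). The summed FPKM of the kinase pair, without TMM, was 2.48 ± 0.218 in NC and 4.24 ± 0.232 in siFSCN1.

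AMOTL2 (chr3:134355347-134375479, minus strand) encodes an angiomotin-like protein that binds YAP and actin, and its gene is a known YAP target. It was at 60.1, 53.8 and 55.4 CPM in NC and at 45.0, 48.1 and 44.1 CPM in siFSCN1. The groups did not overlap, although the gap between the nearest libraries was smaller than the range of the NC libraries. Its log2 fold change was -0.30 (SE 0.055, edgeR adjusted p = 9.0e-05). With library totals in place of TMM it was -0.12 and the call was lost (edgeR adjusted p = 0.0666). A ribosomal protein pseudogene on the same strand, RPL39P5, overlaps an exon of AMOTL2 and had 249 to 332 counts in a library, up to 18.9% of the AMOTL2 count, with a log2 fold change of -0.27 (SE 0.11, edgeR adjusted p = 0.0333).

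AMOTL1 rose by 0.25 on the log2 scale (SE 0.070, edgeR adjusted p = 0.00416), and AMOT, with 2 to 8 counts in a library, was below the filter. AMOTL2 went from 82.3% ± 0.186 to 76.1% ± 2.11 of the summed angiomotin FPKM (SD, n = 3 each, exact permutation p = 0.1). The sum, without TMM, was 8.41 ± 0.443 in NC and 8.27 ± 0.0833 in siFSCN1.

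AJUBA (chr14:22971177-22982551, minus strand) encodes a LIM protein that binds and inhibits LATS kinases at junctions under tension. It was at 81.1, 79.5 and 80.4 CPM in NC and at 65.8, 62.9 and 62.5 CPM in siFSCN1, with a clear gap between the groups. The log2 fold change was -0.33 (SE 0.045, 95% interval -0.43 to -0.24, edgeR adjusted p = 3.2e-06), and the siFSCN1 mean was 79.3% of the NC mean.

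The other LIM proteins of the Ajuba family, which also bind LATS kinases, moved the other way. LIMD1 rose by 0.41 (SE 0.048, edgeR adjusted p = 4.2e-07) and WTIP by 0.62 (SE 0.057, edgeR adjusted p = 2.0e-08) on the log2 scale. AJUBA went from 66.4% ± 0.831 to 53.2% ± 0.532 of the summed FPKM of the family, LIMD1 from 26.0% ± 0.914 to 35.0% ± 0.729 and WTIP from 7.55% ± 0.418 to 11.7% ± 0.495 (SD, n = 3 each). This was the widest shift among the 17 shares tested, 13.2 percentage points for AJUBA (exact permutation p = 0.1). The sum itself, without TMM, was 16.3 ± 0.178 in NC and 18.1 ± 0.574 in siFSCN1, and its direction on the TMM scale was not computed.

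ANKRD1 (chr10:90912096-90921087, minus strand), which encodes a cardiac ankyrin repeat protein, is among the most used readouts of YAP and TEAD activity. It was at 16.4, 17.1 and 16.6 CPM in NC and at 12.4, 13.5 and 14.2 CPM in siFSCN1. All siFSCN1 libraries were lower, and they spread more widely than the NC libraries. The log2 fold change was -0.32 (SE 0.083, 95% interval -0.49 to -0.14, edgeR adjusted p = 0.00244). With library totals in place of TMM it was -0.13 (edgeR adjusted p = 0.19).

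The related ankyrin repeat genes ANKRD2 and ANKRD23 fell too, by 1.42 (SE 0.15, edgeR adjusted p = 1.7e-07) and 0.50 (SE 0.11, edgeR adjusted p = 8.7e-04) on the log2 scale. Both were below 3 mean FPKM in NC.

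AXL (chr19:41219223-41261766, plus strand), a receptor tyrosine kinase and known YAP target, was the most abundant of the 10 genes in FPKM, at 29.6 mean FPKM in NC and 32.7 in siFSCN1. It was at 183, 207 and 184 CPM in NC and at 178, 198 and 189 CPM in siFSCN1. The groups overlapped and the second NC library was the highest of the 6. Its log2 fold change was -0.02 with a 95% interval from -0.13 to 0.083 (edgeR adjusted p = 0.718). The direction turned with the scaling, to 0.17 with library totals (edgeR adjusted p = 0.0071).

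The other receptors of the TAM family fell. TYRO3 had a log2 fold change of -0.70 (SE 0.099, edgeR adjusted p = 5.7e-06) and MERTK of -1.01 (SE 0.25, edgeR adjusted p = 0.00161), the latter at 53 to 84 counts in NC and 24 to 55 in siFSCN1. AXL made up 95.1% ± 0.484 of the summed TAM FPKM in NC and 97.0% ± 0.279 in siFSCN1 (SD, n = 3 each, exact permutation p = 0.1).

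CRIM1 (chr2:36355778-36551135, plus strand) encodes a membrane protein that binds growth factors of the BMP family and is found in published YAP target signatures. It was at 121, 126 and 126 CPM in NC and at 112, 125 and 129 CPM in siFSCN1. The siFSCN1 libraries lay on both sides of the NC libraries. The log2 fold change was -0.02 with a 95% interval from -0.13 to 0.079 (edgeR adjusted p = 0.685), and it turned to 0.16 with library totals (edgeR adjusted p = 0.00821). On deposited FPKM the NC libraries ranged from 13.1 to 13.9 and the siFSCN1 libraries from 14.0 to 15.8, without overlap. FEZ2, on the opposite strand, overlaps the span of CRIM1 with no exon in common, and it fell by 0.52 (SE 0.050, edgeR adjusted p = 3.9e-08).

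Antisense genes over exons of the other members were weak. The highest count of WWTR1-AS1 was 0.900% of the WWTR1 count, and the antisense gene RP11-732A21.3 reached 2.50% of the YAP1 count. The labels describe a kit that keeps the strand, but whether strand was used in counting is not given in the sources used here, so reads of such pairs may be shared.

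By FPKM in NC, the order from high to low was AXL, WWTR1, CRIM1, AJUBA, TEAD4, ANKRD1, AMOTL2, TEAD1, YAP1 and LATS2. Only ANKRD1 (7.41) and AMOTL2 (6.92) were neighbours with overlapping libraries. In siFSCN1, YAP1 stood in place 5 instead of place 9, at 8.60 FPKM. TEAD4 (7.21), TEAD1 (6.82), ANKRD1 (6.67) and AMOTL2 (6.29) followed, each overlapping the next.

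Fold changes in these libraries depended on abundance. Taken over every gene tested, the median was 0.40 for those at up to 1 FPKM, 0.05 from 1 to 5 FPKM, -0.17 from 5 to 20 FPKM, -0.29 from 20 to 100 FPKM and -0.41 above 100 FPKM. Each of the 10 genes was therefore set beside the genes within 1.5-fold of its own mean FPKM. YAP1 (0.56) and WWTR1 (0.30) stood above genes of their level, whose medians were -0.13 and -0.27 and whose lower and upper quartiles ran from -0.45 to 0.20 and from -0.58 to 0.027. LATS2 (0.83) stood above a median of 0.07 and quartiles from -0.28 to 0.44. TEAD4 (-0.51) lay below the quartiles of its own level, which ran from -0.46 to 0.15.

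AMOTL2, AJUBA and ANKRD1 were lower than the medians of genes of their level (-0.13, -0.19 and -0.13) but within the quartiles of such genes. AXL and CRIM1, close to 0, had like-level medians of -0.28 and -0.22. With the abundance trend removed from the fit, the log2 fold changes of AXL, CRIM1 and TEAD1 became 0.24 (edgeR adjusted p = 3.8e-04), 0.20 (edgeR adjusted p = 0.00184) and 0.22 (edgeR adjusted p = 4.1e-04), and that of WWTR1 0.58 (edgeR adjusted p = 3.7e-09). Those of AMOTL2 and AJUBA shrank to -0.17 (edgeR adjusted p = 0.0104) and -0.17 (edgeR adjusted p = 0.00353), and that of ANKRD1 was -0.37 (edgeR adjusted p = 8.1e-04). The part of the abundance trend in each result was not tested further.

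**Figure D3:**
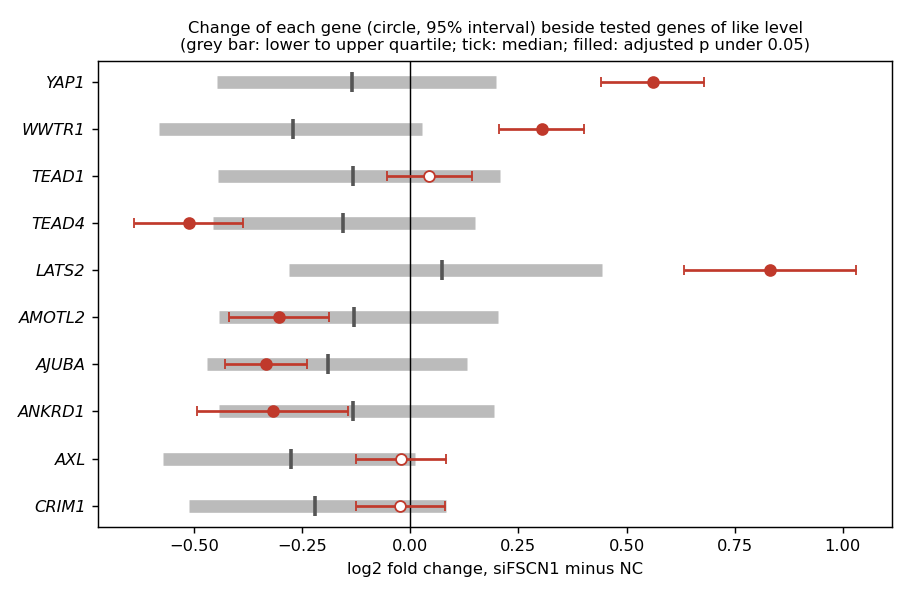
Log2 fold change of each of the 10 genes, siFSCN1 minus NC (horizontal axis), with its 95% interval (circle and whiskers, filled at an adjusted p under 0.05) beside the tested genes within 1.5-fold of its mean FPKM (grey bar, lower to upper quartile; tick, median). YAP1, WWTR1 and LATS2 lie to the right of their grey bars and TEAD4 to the left of its own.

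The scaling between libraries mattered for the genes near 0. TMM factors ran from 0.933 to 0.942 in NC and from 1.05 to 1.08 in siFSCN1. With the upper quartile or library totals in place of TMM, the median over every gene tested moved from 0.03 to 0.15 and 0.22. Both scalings shift all genes by nearly one amount, so the order of the 10 genes is kept by construction. YAP1, WWTR1 and LATS2 remained higher and TEAD4 and AJUBA lower under each of the 16 alternatives run. The range was 0.48 to 0.75 for YAP1, 0.26 to 0.58 for WWTR1, 0.65 to 1.02 for LATS2, -0.56 to -0.31 for TEAD4 and -0.37 to -0.15 for AJUBA.

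**Figure D4:**
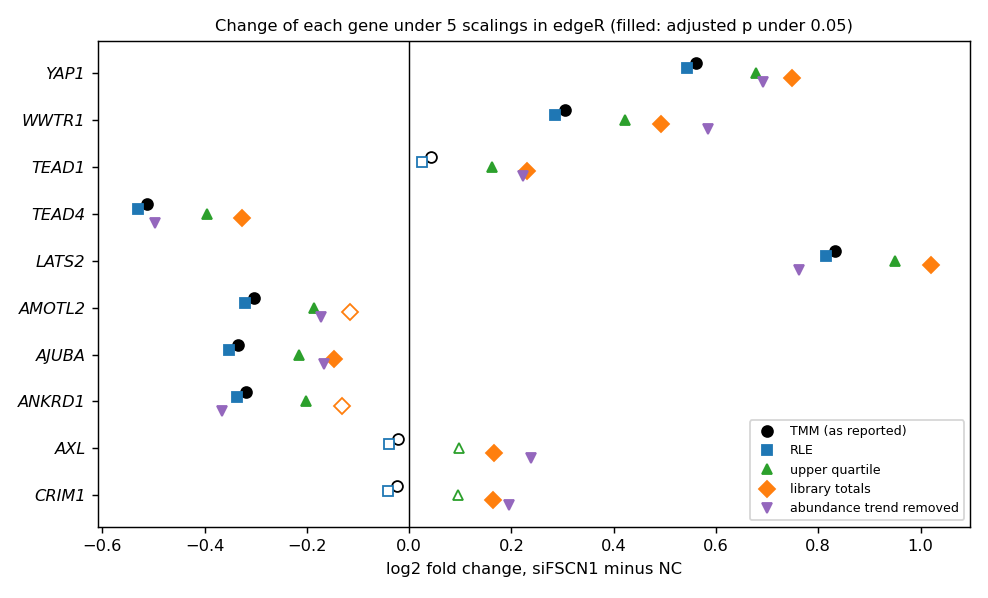
Log2 fold change of each gene, siFSCN1 minus NC (horizontal axis), under 5 scalings of the same counts in edgeR (symbols, filled at an adjusted p under 0.05). YAP1, WWTR1 and LATS2 stay right of 0 and TEAD4 and AJUBA left of it, whereas AXL and CRIM1 lie at -0.02 with TMM and at 0.17 and 0.16 with library totals.

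Off-target pairing of the siRNA named for these libraries was looked at through its seed, bases 2 to 8 of the guide strand, which pairs with CTCTGGA. In the 3′ UTR of the canonical transcript (GENCODE v44), TEAD1 and AJUBA held 1 match each and the other 8 genes none. The windows are shown so that the match in each can be compared with the intended site in FSCN1, with the bases that pair with the seed in capitals.
FSCN1: tgagccttatttCTCTGGAa
AJUBA: aagaggtagaaaCTCTGGAc
TEAD1: atttattgaaacCTCTGGAa

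AJUBA was lower in siFSCN1 and TEAD1 did not pass the test, as given above. Among 13526 tested genes with an annotated 3′ UTR, 17.5% held a match, with a median log2 fold change of -0.12, against -0.0046 for those without one. Matches were also found in genes described above and below. Those that rose included VGLL3 (3), LIMD1 and WTIP (2 each) and STK25 (1). Those that fell included FBXW11 (3), TYRO3 and PPP2R1A (2 each) and ANKRD23, MARK2 and NUAK2 (1 each). The part of seed pairing in the AJUBA result was not tested.

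The other lists of pathway genes were set beside the background of 35.1% higher and 33.2% lower genes among all genes tested. Of 34 genes of the Hippo kinase core and its upstream inputs, 11 were higher, 14 lower and 9 neither, with a median log2 fold change of 0.07, so that both counts were near that background. The largest fall was that of NF2, which encodes merlin, a scaffold that brings LATS kinases to the membrane. NF2 was at 61.3, 57.2 and 60.3 CPM in NC and at 21.2, 21.4 and 20.2 CPM in siFSCN1, a log2 fold change of -1.51 (SE 0.054, edgeR adjusted p = 5.2e-14). The siFSCN1 libraries were thus tightly grouped at 35.1% of the NC mean.

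MOB1A, the co-activator subunit of LATS kinases, went from 161 ± 4.20 to 81.7 ± 2.41 CPM (SD, n = 3 each), a log2 fold change of -0.98 (SE 0.042, edgeR adjusted p = 5.5e-13). MARK2, a polarity kinase, fell by 0.80 (SE 0.055, edgeR adjusted p = 4.0e-10). The largest rises at 1 FPKM or more were those of the polarity scaffold DLG5 (0.92, SE 0.053), the KIBRA paralog WWC2 (0.72, SE 0.067) and MAP4K4, a kinase that activates LATS (0.70, SE 0.049), with edgeR adjusted p of 3.6e-11, 2.4e-08 and 5.5e-10. With library totals the counts of this list were 17 higher and 5 lower, where 7970 and 3829 of all 17076 genes tested were higher and lower.

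STRIPAK is the phosphatase complex that removes activating phosphates from the Hippo kinases. Of its 16 genes, 5 were higher, 7 lower and 4 neither, with a median of 0.03, against 35.1% higher and 33.2% lower among all genes tested, so these counts too were near the background. STRN3, a regulatory subunit, rose by 0.39 (SE 0.094, edgeR adjusted p = 0.00138), SIKE1 by 0.31 (SE 0.069, edgeR adjusted p = 7.8e-04) and the kinase STK25 by 0.27 (SE 0.049, edgeR adjusted p = 8.1e-05). Larger falls were seen. PPP2R1A, the scaffold subunit of protein phosphatase 2A, went from 389 ± 7.83 to 227 ± 11.7 CPM (SD, n = 3 each), a log2 fold change of -0.78 (SE 0.041, edgeR adjusted p = 8.3e-12). STRIP2 fell by 1.13 (SE 0.12, edgeR adjusted p = 2.1e-07) and MOB4 by 0.51 (SE 0.052, edgeR adjusted p = 8.9e-08). The count of higher STRIPAK genes was 3 without the first NC library, without the second siFSCN1 library or without the third siFSCN1 library. With library totals it was 8, where 7970 of all 17076 genes tested were higher.

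Among 18 genes for nuclear partners, cytoplasmic retention and turnover of YAP1 and TAZ, 16 were tested, of which 4 were higher, 11 lower and 1 neither, with a median of -0.27, against 35.1% higher and 33.2% lower among all genes tested. FBXW11, which encodes an F-box protein of the SCF ubiquitin ligase that marks phosphorylated YAP1 and TAZ for degradation, was at 51.0, 53.9 and 49.9 CPM in NC and at 13.2, 13.1 and 13.9 CPM in siFSCN1. Its log2 fold change was -1.95 (SE 0.055, edgeR adjusted p = 3.8e-15), and its 3′ UTR held 3 matches to the seed of the siRNA. The part of these matches in the fall was not tested. BTRC, the paralog of FBXW11 in the same ligase, rose by 0.51 (SE 0.065, edgeR adjusted p = 1.5e-06).

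VGLL4, which competes with YAP1 for TEAD factors, rose from 28.1 ± 0.799 to 46.7 ± 0.423 CPM (SD, n = 3 each), a log2 fold change of 0.73 (SE 0.050, edgeR adjusted p = 3.8e-10). SFN and YWHAE encode 14-3-3 proteins, the family that holds phosphorylated YAP1 in the cytoplasm. SFN fell by 1.23 (SE 0.041, edgeR adjusted p = 2.7e-14) and YWHAE by 0.85 (SE 0.037, edgeR adjusted p = 6.1e-13). Both are abundant genes, at 233 and 128 mean FPKM in NC, where the medians of genes of like level were -0.43 and -0.38. With the abundance trend removed, this list had 7 higher and 7 lower genes, where 5593 and 5594 of all 17076 genes tested were higher and lower.

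Of 17 other YAP and TAZ target genes, 8 were higher, 6 lower and 3 neither, with a median of 0.12, against 35.1% higher and 33.2% lower among all genes tested. TGFB2, a ligand of the TGF-beta family, had the largest rise at 1 FPKM or more, from 18.3, 15.4 and 16.7 CPM in NC to 48.5, 51.6 and 51.5 CPM in siFSCN1. Its log2 fold change was 1.59 (SE 0.061, edgeR adjusted p = 1.4e-13). NT5E, the ectonucleotidase CD73, rose by 1.45 (SE 0.060, edgeR adjusted p = 3.6e-13). IGFBP3, an IGF-binding protein that the study itself picked out on these libraries, rose by 1.15 (SE 0.042, edgeR adjusted p = 8.4e-14).

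The falls among these targets were smaller. The kinase gene NUAK2 fell by 0.72 (SE 0.048, edgeR adjusted p = 2.5e-10), the transcription factor gene FOXF2 by 0.52 (SE 0.076, edgeR adjusted p = 9.1e-06) and the stress gene GADD45A by 0.38 (SE 0.052, edgeR adjusted p = 3.0e-06). CCN1 and CCN2, which with ANKRD1 are the usual readouts of YAP activity and are named here after their values were seen, went opposite ways. CCN2 was at 10.4, 8.93 and 8.56 CPM in NC and at 16.0, 16.8 and 16.8 CPM in siFSCN1, a log2 fold change of 0.83 (SE 0.098, edgeR adjusted p = 5.9e-07). CCN1 was at 28.0, 26.7 and 26.6 CPM in NC and at 23.3, 22.8 and 24.0 CPM in siFSCN1, a log2 fold change of -0.21 (SE 0.053, edgeR adjusted p = 0.00159). Of these 3 readouts, 1 rose and 2 fell with TMM. CCN2 lay above the quartiles of genes of like level (-0.40 to 0.27). CCN1 lay within those of its own level (-0.44 to 0.23), as did ANKRD1. On deposited FPKM, without TMM, CCN1 overlapped between groups, from 5.73 to 5.97 in NC and from 5.43 to 5.78 in siFSCN1. ANKRD1 lost its call with library totals, as given above.

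**Figure D5:**
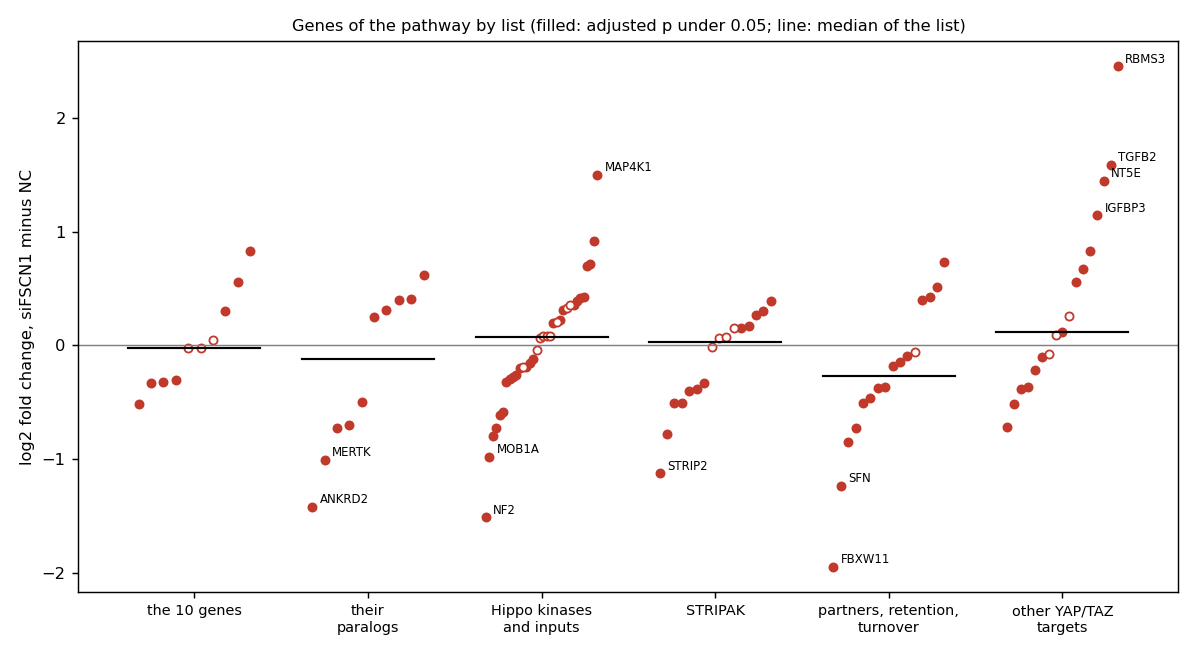
Log2 fold change, siFSCN1 minus NC (vertical axis), of the 10 genes and of the tested genes of 5 lists (horizontal axis), each point a gene, filled at an adjusted p under 0.05, with the median of each list as a line. Every list holds genes on both sides of 0, from FBXW11 at -1.95 to RBMS3 at 2.45, and the 10 genes lie between -0.51 and 0.83.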

How the data were processed

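Polyadenylated RNA of A549 cells was sequenced in 3 NC and 3 siFSCN1 libraries, grouped by their titles. The authors deposited raw counts per gene and FPKM, after trimming and alignment to GRCh38 with HISAT2 and keeping uniquely mapped reads per their methods, whereas the submitters' processing notes name TopHat2 and bcl2fastq. The program that counted reads, whether it used strand, and its annotation are not given in the sources used here. The deposited FPKM values were used for levels and shares within families, without TMM. No column was left unused (0).

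Genes were kept by filterByExpr (17076 of 30230), scaled by TMM and compared with edgeR 4.0.16 (R 4.3.3) by the quasi-likelihood test with no covariate and Benjamini-Hochberg adjustment over all genes tested. The authors' own test was DESeq2, run here as an alternative (1.42.0) beside limma 3.58.1 on log2(FPKM + 0.1) and log2(FPKM + 1), other scalings and filters, removal of the abundance trend by loess, a replicate block and leaving out each library. SE and 95% intervals came from the fit. The script was tested on simulated data. Shares were compared by exact permutation (scipy 1.17.1), where p cannot go below 0.1. The labels do not state separate cultures, so p-values measure the spread between these libraries, which the study calls biological replicates.

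The 10 genes, the 5 lists of pathway genes and the tests were chosen with earlier results of these data known. Named were the 10 genes, FSCN1, the paralogs, overlapping genes and, from each other list, the 3 largest rises and falls past the test at 1 FPKM or more on average in the higher group. Same-numbered libraries did not deviate together (correlations of -0.03, 0.04 and -0.08). So few libraries cannot exclude that they were handled as pairs. Replicates differed beyond sampling noise (chi-square per degree of freedom from 2.95 to 7.49 within groups). Positions come from GENCODE v44, in which 30147 of 30230 identifiers matched, and promoters from RefSeq.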

Additional observations from a re-analysis of the deposited data

How the results depend on the processing

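YAP1, WWTR1, TEAD4, LATS2, AJUBA and FSCN1 kept their direction and their side of the threshold under all 16 alternatives, FSCN1 between -4.11 and -3.41, and the 9 family shares recomputed kept their direction under all 7 of theirs. TEAD1, which did not pass with TMM, passed as higher with the upper quartile (0.16), library totals (0.23), limma with a pseudocount of 0.1 FPKM (0.21) or 1 FPKM (0.18), and with the abundance trend removed (0.22). AMOTL2 lost its call with library totals (-0.12) and with limma (-0.14 and -0.12), and ANKRD1 with library totals (-0.13). AXL changed sign with the upper quartile (0.097), library totals (0.17), the stricter filter (0.0078), limma (0.14 and 0.14) and the trend removed (0.24), and ran from -0.067 to 0.028 when 1 library was left out, positive without the second NC library or the first siFSCN1 library. CRIM1 did so with the upper quartile (0.095), library totals (0.16), the stricter filter (0.0055), limma (0.14 and 0.13) and the trend removed (0.20), and ran from -0.078 to 0.018, positive without the first siFSCN1 library. Library totals and the upper quartile move every gene by one amount, and the cause of the other shifts was not tested.

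The count of higher genes among the 10 was 6 with library totals and with the trend removed and 5 with either limma fit, against 3. Among all genes these fits called 7970 and 5593 of 17076 and 7478 and 7431 of 17075 higher, against 5993 of 17076. The count of lower genes was 2 with library totals, against 4, where 3829 of all genes were lower, against 5670, and 1 gene, LATS2 at 1.02, then reached a 2-fold change. For the Hippo list, 17 genes were higher with library totals, and 8, 5, 5 and 5 were lower with the upper quartile, library totals and the 2 limma fits. For STRIPAK, 8 were higher with the upper quartile, library totals and both limma fits, 3 with DESeq2 or no filter, and 3 to 5 when 1 library was left out. For nuclear partners, retention and turnover, 7 were higher with the trend removed, and 7 were lower there and in both limma fits. For the other targets, 3 were lower in both limma fits. Among all genes, 7195 of 17076 were higher and 4514 lower with the upper quartile, and 3919 and 3903 of 17075 were lower in the limma fits. DESeq2 called 5402 of 17076 higher and the fit with no filter 6355 of 30230. With the trend removed, 5594 of 17076 were lower. The cause of the differences in these counts was not tested, apart from the shift of all genes that a scaling makes by construction. With the replicate block the 10 genes again gave 3 higher and 4 lower, YAP1 at 0.56 and AXL at -0.02, and no call changed. Depth limits the genes under 1 FPKM most, and the 10 genes had at least 262 counts in every library.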

Other observations

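Genes with a mean FPKM under 1 in both groups were outside the rule for genes named from the pathway lists. The lists of paralogs and pathway genes held 11 such genes that were tested, of which 4 rose, 3 fell and 4 passed in neither direction. RBMS3, an RNA-binding protein gene of the YAP and TAZ target list, had 4, 8 and 12 counts in NC and 47, 51 and 52 counts in siFSCN1, a log2 fold change of 2.45 (SE 0.33, edgeR adjusted p = 2.8e-06). MAP4K1, a kinase of the Hippo list known from blood cells, had 15, 9 and 36 counts in NC and 76, 63 and 51 counts in siFSCN1 (1.50, SE 0.31, edgeR adjusted p = 3.1e-04). VGLL3, a TEAD-binding cofactor with 3 matches to the seed of the siRNA in its 3′ UTR, rose by 0.43 (SE 0.12, edgeR adjusted p = 0.00465), and the polarity kinase gene MARK1 by 0.41 (SE 0.14, edgeR adjusted p = 0.0129). The falls were those of MERTK, given above, of STK3, which encodes the Hippo kinase MST2 (-0.26, SE 0.11, edgeR adjusted p = 0.0428), and of FRMD6 (-0.30, SE 0.12, edgeR adjusted p = 0.0379). TNIK (0.35), FAT4 (0.21), DCHS1 (0.33) and F3 (0.26) did not pass the test.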
